A study of Mus musculus with 6 samples.

Results

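The tumour necrosis factor (TNF) superfamily genes were examined in the chromatin accessibility profile of the Beko line, progenitor T cells of the mouse in which Notch signaling is constitutively on. Members were taken from the GENCODE vM1 annotation of the mm9 build by their symbols, as protein-coding genes named Tnfsf or Tnfrsf plus Tnf, Lta, Ltb, Fas, Fasl, Cd27, Cd40 and Cd70. This gave 39 of 22380 annotated protein-coding genes, 16 ligands and 23 receptors. ATAC-Seq, which tags accessible DNA with a transposase, was done on 6 libraries of the same line. Of these, 3 came from cells given DAPT for 24 h, a γ-secretase inhibitor (GSI) that blocks Notch activation, and 3 from cells given DMSO for the same time. The dose is labelled as 10 mg/ml. The study's methods give the dose in µg/ml instead. The data are 1 list of 32527 accessible intervals (peaks) merged over both treatments. The list has no value per library, so no value below has a replicate error, GSI was not compared with DMSO, and ligands and receptors were set side by side without a test. Nor does a peak tell in how many of the cells the DNA was accessible.

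TNF superfamily ligands are mostly trimeric membrane proteins, some of which are shed, and they act by clustering their receptors. Receptors with a death domain recruit FADD or TRADD and can start apoptosis, whereas many of the others bind TRAF adaptors and activate NF-κB, and a few are decoys that bind ligand without such signaling. In T cells many of the receptors are costimulatory, and their ligands are often carried by the antigen-presenting or stromal partner cell.

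The labelled cell type was checked at marker genes. Of the T-cell progenitor markers matched by symbol, 7 of 7 had a peak within 1 kb of an annotated transcription start site (TSS), among them Cd3e, Tcf7, Gata3 and Rag1, while Ptcra was not matched. None of the B-cell markers Pax5, Ebf1 and Cd79a had one, nor did any of 4 myeloid markers (Csf1r, Cebpa, Cd14, Lyz2). Of 3 epithelial or stromal markers, Col1a1 had one and Epcam and Krt8 did not.

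First, peaks at the promoters were compared between both arms of the family. A promoter peak is a peak that covers, or lies within 1 kb of, the TSS of any annotated transcript of the gene. Among the receptors 16 of 23 had a promoter peak (69.6%, exact 95% binomial interval 47.1 to 86.8%). Among the ligands 6 of 16 had one (37.5%, 15.2 to 64.6%). Of all protein-coding genes 46.9% had one. The receptors lay above this share, but the lower end of their interval, 47.1%, lay next to it. The ligands lay below it, with an interval that includes it. For the whole family it was 22 of 39 (56.4%). The TSS itself lay inside a peak in 15 receptors and 5 ligands, against 44% of all genes. The intervals cover counting error only and treat genes as independent, which neighbouring members are not, and those of ligands and receptors overlap. Members with overlapping windows were also counted as 1 locus, which had a promoter peak if any of its members had one. The shares were then 68.4% of 19 receptor loci (43.4 to 87.4%) and 36.4% of 11 ligand loci (10.9 to 69.2%). Both of these intervals include 46.9%, but that is a share of single genes and not of loci that may hold several.

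Many promoters in mammals lie in CpG-rich DNA, which is accessible in most cell types, so the sequence of the 5′ ends was examined next. The 1000 bp centred on the 5′ end of a gene were called CpG-rich when CpG reached 0.6 of the frequency expected from base composition and GC reached 50%. This held for 44.2% of all protein-coding genes, 30.4% of the receptors (7 of 23) and 6.25% of the ligands, where Tnfsf9 was the only one. Of all genes with a CpG-rich 5′ end 76.2% had a promoter peak, against 23.8% of the others. Among the 7 CpG-rich receptors 5 had a promoter peak, which is close to the share of all CpG-rich genes. Outside this class the promoter peak was present in 11 of 16 receptors (68.8%, 41.3 to 89.0%) and in 5 of 15 ligands (33.3%, 11.8 to 61.6%), against the 23.8% of all such genes. The interval of the receptors lies above that value and the interval of the ligands includes it. Tnfrsf19 and Tnfrsf22 lay just inside the class, with CpG ratios of 0.601 and 0.609, and Tnfrsf23 and Tnfsf11 just outside, with 0.588 and 0.561.

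**Figure D1:**
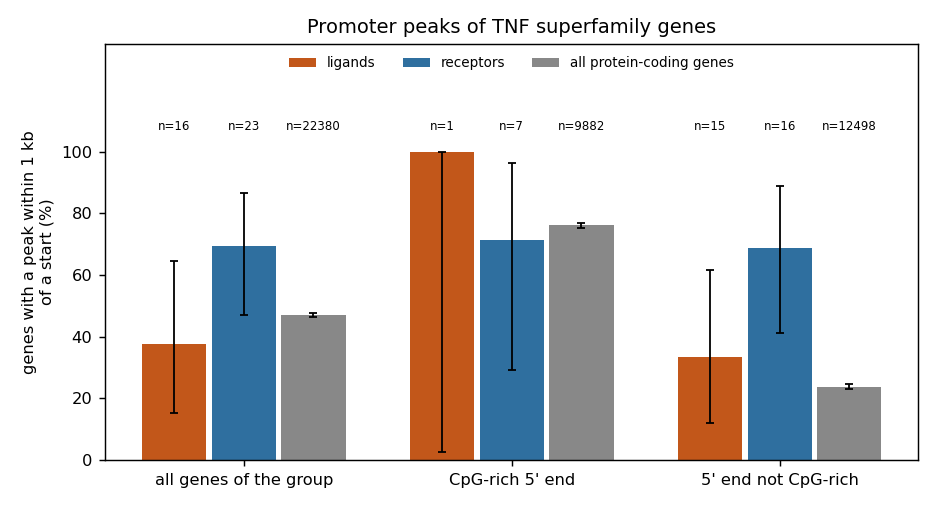
Share of genes with a peak within 1 kb of an annotated start (vertical axis, percent) for ligands, receptors and all protein-coding genes, over all genes and split by the CpG content of the 5′ end. Bars give the share, lines the exact 95% binomial interval (counting error only) and n the number of genes. Receptors stand at 69.6% and ligands at 37.5%, and outside the CpG-rich class at 68.8% and 33.3% against 23.8% of all such genes.

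The sequence upstream of the 5′ end is shown for 4 genes with a promoter peak and for 2 T-cell effector ligands without one, so that the DNA can be seen beside the call. Each stretch holds the 150 bp upstream of the 5′ end in mm9, 5′ to 3′ on the strand of the gene, and none of it lies in an annotated exon. Capitals mark matches on either strand to 6 motifs, which are TGGGAA (RBPJ), TGTGGT (RUNX), CAGCTG (E-box), GGGCGG (SP), CCGGAA (ETS) and the NF-κB consensus. Tnfsf10 (chr3:27215800-27215949, plus strand) and Cd27 (chr6:125187029-125187178, minus strand), with the widest peaks of the ligands and the receptors, held none of the 6. Ltb (chr17:35331234-35331383, plus strand) held 1 NF-κB match, which 2.72% of all 22380 such upstream stretches have. Tnfrsf1b (chr4:144836774-144836923, minus strand) held 2 GGGCGG sites. Tnf (chr17:35338953-35339102, minus strand) and Fasl (chr1:163718627-163718776, minus strand), neither in a peak, held 1 GGGCGG site each. This core is found in 35.4% of all such stretches.
Tnfsf10: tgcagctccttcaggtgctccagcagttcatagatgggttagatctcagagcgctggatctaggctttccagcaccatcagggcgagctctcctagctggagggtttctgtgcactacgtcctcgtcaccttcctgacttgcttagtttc
Ltb: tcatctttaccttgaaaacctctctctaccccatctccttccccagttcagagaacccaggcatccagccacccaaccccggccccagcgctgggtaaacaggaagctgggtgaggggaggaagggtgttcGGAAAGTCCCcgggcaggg
Cd27: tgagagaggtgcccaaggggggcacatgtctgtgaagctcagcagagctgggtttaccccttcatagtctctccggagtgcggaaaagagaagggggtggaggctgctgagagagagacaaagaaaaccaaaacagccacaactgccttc
Tnfrsf1b: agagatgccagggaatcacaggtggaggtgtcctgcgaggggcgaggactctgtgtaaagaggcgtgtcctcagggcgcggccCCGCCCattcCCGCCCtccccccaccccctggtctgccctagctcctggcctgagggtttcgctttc
Tnf: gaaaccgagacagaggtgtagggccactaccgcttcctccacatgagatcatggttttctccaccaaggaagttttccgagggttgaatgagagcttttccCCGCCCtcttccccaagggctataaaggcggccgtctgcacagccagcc
Fasl: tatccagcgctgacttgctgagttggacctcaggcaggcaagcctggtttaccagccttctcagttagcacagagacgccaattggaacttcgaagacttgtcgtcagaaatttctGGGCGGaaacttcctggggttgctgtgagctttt

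The ligands were then examined one by one. Tnfsf10, which encodes the death ligand TRAIL, had the widest promoter peak of the ligands, 1156 bp at chr3:27215671-27216826, and no other peak within the gene plus 20 kb. Tnfsf14, which encodes LIGHT, had a promoter peak of 824 bp (chr17:57333381-57334204) as the only peak of its window. The promoter peak of Tnfsf9, the ligand of the costimulatory receptor CD137, was 735 bp wide (chr17:57244641-57245375) and also covered a start of the opposite-strand gene Gm11110. A further peak of 719 bp lay 8396 bp upstream of Tnfsf9. At Tnfsf11, which encodes the osteoclast factor RANKL, a peak of 595 bp lay over the 5′ end (chr14:78707524-78708118) and one of 387 bp in an intron.

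In the TNF and lymphotoxin cluster of chromosome 17, the genes Ltb, Tnf and Lta lie within 10913 bp, and their windows held 8 peaks in all. Ltb, which encodes the membrane anchor of the lymphotoxin heterotrimer, had peaks of 483 bp over its 5′ end (chr17:35331087-35331569) and of 643 bp at 862 bp from its nearest TSS (chr17:35332433-35333075). Lta, which encodes lymphotoxin α, had a peak of 312 bp inside the gene (chr17:35341480-35341791), 505 bp from its only annotated TSS. Tnf, the founding cytokine of the family, had no promoter peak. Its nearest peak, of 489 bp (chr17:35337339-35337827), was centred in a Tnf intron 1122 bp from the nearest TSS, just beyond the 1 kb limit. The other 4 peaks of the cluster lay outside the 3 genes. Upstream of Ltb were a peak of 446 bp (chr17:35315472-35315917), whose nearest coding TSS is that of Aif1, and one of 789 bp (chr17:35322639-35323427), nearest to Lst1. On the far side, peaks of 333 bp and 592 bp lay 14329 and 16877 bp upstream of Lta, both nearest to Gm16181. Single genes of the cluster thus had 7 (Lta), 6 (Ltb) and 6 (Tnf) peaks, most of which their windows share.

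No promoter peak was found at the other 9 ligands besides Tnf. Fasl, which encodes the ligand of the death receptor Fas, had 3 peaks of 275 to 482 bp in its window, the nearest at 8922 bp from a TSS. Cd70, whose product is the ligand of CD27, had 1 peak of 459 bp at 17240 bp upstream (chr17:57306440-57306898), between Tnfsf9 and Tnfsf14. The windows of Tnfsf12 (TWEAK) and Tnfsf13 (APRIL), which are adjacent genes, together held 4 peaks, none of which had its nearest coding TSS in either gene. They were a peak of 1697 bp at Eif4a1, peaks of 796 and 512 bp at Senp3 and one of 1054 bp at Mpdu1, each within 1 kb of a start of that gene. The remaining 5 ligands had no peak within the gene plus 20 kb. They are Tnfsf13b (the B-cell survival factor BAFF), Tnfsf15 (TL1A), and the ligands of GITR, OX40 and CD30, which are Tnfsf18, Tnfsf4 and Tnfsf8. The nearest peak was 28783 bp from a TSS of Tnfsf13b, 86715 bp from Tnfsf8, 143746 bp from Tnfsf4, 175990 bp from Tnfsf18 and 186093 bp from Tnfsf15.

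The receptors of the lymphocyte costimulatory group, which signal through TRAF adaptors, had a promoter peak in 6 of 8 genes. This is close to the 69.6% of all receptors. The receptor groups used here and below were formed after seeing the peaks. Cd27, a receptor of developing and naive T cells, had the widest promoter peak of the family, 1257 bp at chr6:125186575-125187831, and peaks of 483 and 448 bp at 1382 and 7542 bp upstream. Its other 3 peaks lay downstream, nearest to Vamp1 or Tapbpl. Tnfrsf14, which encodes the LIGHT receptor HVEM, had one of 1142 bp (chr4:154301404-154302545) that covered 2 of its internal starts and ended 127 bp from its 5′ end, with 2 other peaks in its window. Tnfrsf1b, which encodes the TNF receptor without a death domain, had one of 838 bp (chr4:144836193-144837030). Tnfrsf18, which encodes GITR, had one of 691 bp (chr4:155400010-155400700) and peaks of 723 and 1045 bp downstream. At Tnfrsf8, which encodes CD30, the promoter peak was 418 bp wide (chr4:144904904-144905321). Tnfrsf4, which encodes OX40 and lies beside Tnfrsf18, had no promoter peak, and the 3 peaks of its window were those of Tnfrsf18. Cd40, a receptor of B cells and other antigen-presenting cells, had only 1 peak, of 467 bp, downstream of the gene.

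Tnfrsf9, which encodes CD137, had 2 promoter peaks. The one of 824 bp over its annotated 5′ end (chr4:150288131-150288954) also covered a start of Park7 on the opposite strand, so it belongs to both genes by this definition. The other, of 435 bp (chr4:150298441-150298875), lay 540 bp from a start further inside the gene. Of its further peaks, those of 435 and 624 bp lay upstream and nearest to Park7, one of 717 bp lay in an intron and one of 1006 bp downstream, nearest to Uts2.

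Of the 5 death domain receptors, Fas (424 bp, chr19:34364925-34365348), Tnfrsf1a (565 bp, chr6:125299428-125299992) and Tnfrsf21, which encodes DR6 (921 bp, chr17:43153239-43154159), had a promoter peak. Tnfrsf1a had 6 peaks in its window and Tnfrsf21 had 2. Fas also had an upstream peak of 520 bp and intronic peaks of 435 and 416 bp. Tnfrsf10b, a TRAIL receptor, had only an intronic peak of 328 bp, although its 5′ end is CpG-rich. Tnfrsf25, which encodes DR3, had 5 peaks in its window, the nearest at 2568 bp from a TSS. Only 1 of them had its nearest coding TSS in Tnfrsf25.

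Of the 3 receptors of the B-cell factors BAFF and APRIL, 2 had a promoter peak. Tnfrsf13c, which encodes the BAFF receptor, had a promoter peak of 670 bp (chr15:82054572-82055241) and 2 upstream peaks nearest to Cenpm. Tnfrsf13b, which encodes TACI, had one of 767 bp (chr11:60955762-60956528), but at internal starts of non-coding transcripts, 15505 bp from the 5′ end. Tnfrsf17, which encodes the plasma cell receptor BCMA, had none, and of the 2 peaks in its window 1 lay at the start of Snx29.

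Among the 7 other receptors, 5 had a promoter peak. They include Tnfrsf12a (the TWEAK receptor Fn14, 426 bp, chr17:23814259-23814684) and Tnfrsf19 (TROY, 547 bp, chr14:61665113-61665659, 33 bp from the nearest TSS), with 2 and 3 peaks in their windows. The adjacent genes Tnfrsf26, Tnfrsf22 and Tnfrsf23 on chromosome 7, the latter pair of which encode TRAIL decoy receptors, each had one, of 710 bp (chr7:150813531-150814240), 472 bp (chr7:150835328-150835799) and 339 bp (chr7:150871634-150871972). The only other peak of this cluster, of 942 bp, lay at the start of Cars. Tnfrsf11a, which encodes RANK, had only intronic peaks of 300 and 348 bp although its 5′ end is CpG-rich. Tnfrsf11b, which encodes the secreted decoy osteoprotegerin, was the only receptor without a peak in the gene plus 20 kb, and its nearest peak was 793287 bp away.

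**Figure D2:**
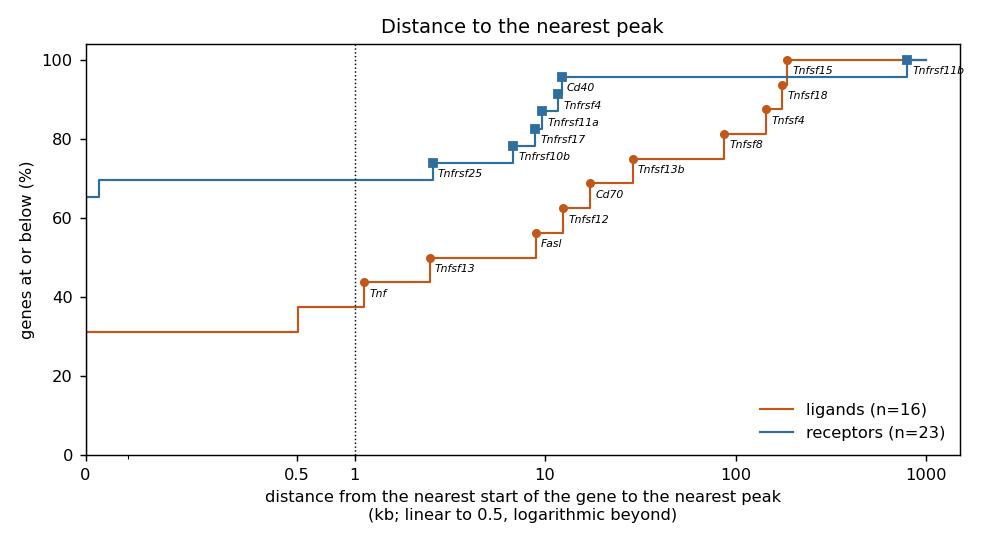
Share of ligands and of receptors (vertical axis, percent) whose nearest peak lies at or below a given distance from an annotated start (horizontal axis, kb, linear to 0.5 and logarithmic beyond), with genes beyond the dotted 1 kb limit named. Tnf lies just beyond the limit, 5 ligands lie between 28783 and 186093 bp, and of the receptors only Tnfrsf11b lies that far or farther.

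Known partners were set side by side, using 23 textbook ligand and receptor pairs listed after the peaks had been seen. These pairs share genes and are not independent. A promoter peak was present in 69.6% of receptors and 37.5% of ligands. Pairs with only the receptor would thus outnumber pairs with only the ligand without any matching of partners. Whether partners match was not tested. Both partners had a promoter peak in 6 pairs, among them Tnfsf9 with Tnfrsf9 and Tnfsf14 with Tnfrsf14. Only the receptor had one in 10 pairs, such as Cd70 with Cd27, Fasl with Fas, Tnfsf8 with Tnfrsf8 and Tnfsf18 with Tnfrsf18. The ligand alone had one in 3 pairs, which are Tnfsf10 with Tnfrsf10b and Tnfsf11 with either Tnfrsf11a or Tnfrsf11b. In 4 pairs neither had one, among them Tnfsf4 with Tnfrsf4.

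Next, all peaks within the gene plus 20 kb were counted. At least 1 such peak was found at 22 of 23 receptors (95.7%, 78.1 to 99.9%) and at 11 of 16 ligands (68.8%, 41.3 to 89.0%), against 70.1% of all protein-coding genes. The median was 3 peaks per receptor locus and 1.5 per ligand locus, against 2 over all protein-coding genes, with a highest count of 8 and 7. Receptor genes were longer, with a median of 17322 bp against 8703.5 bp. Per 10 kb of window the medians were 0.476 for receptors and 0.256 for ligands, against 0.231 over all genes. The medians changed with the peaks counted. For the gene alone they were 1 in receptors and 0.5 in ligands, and for the gene plus 50 kb they were 5 and 3.5. When only peaks whose nearest coding TSS belongs to the member were counted, when the window was the gene plus 5 kb, or when peaks under 500 bp were left out, the median was 1 in receptors and 1 in ligands.

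**Figure D3:**
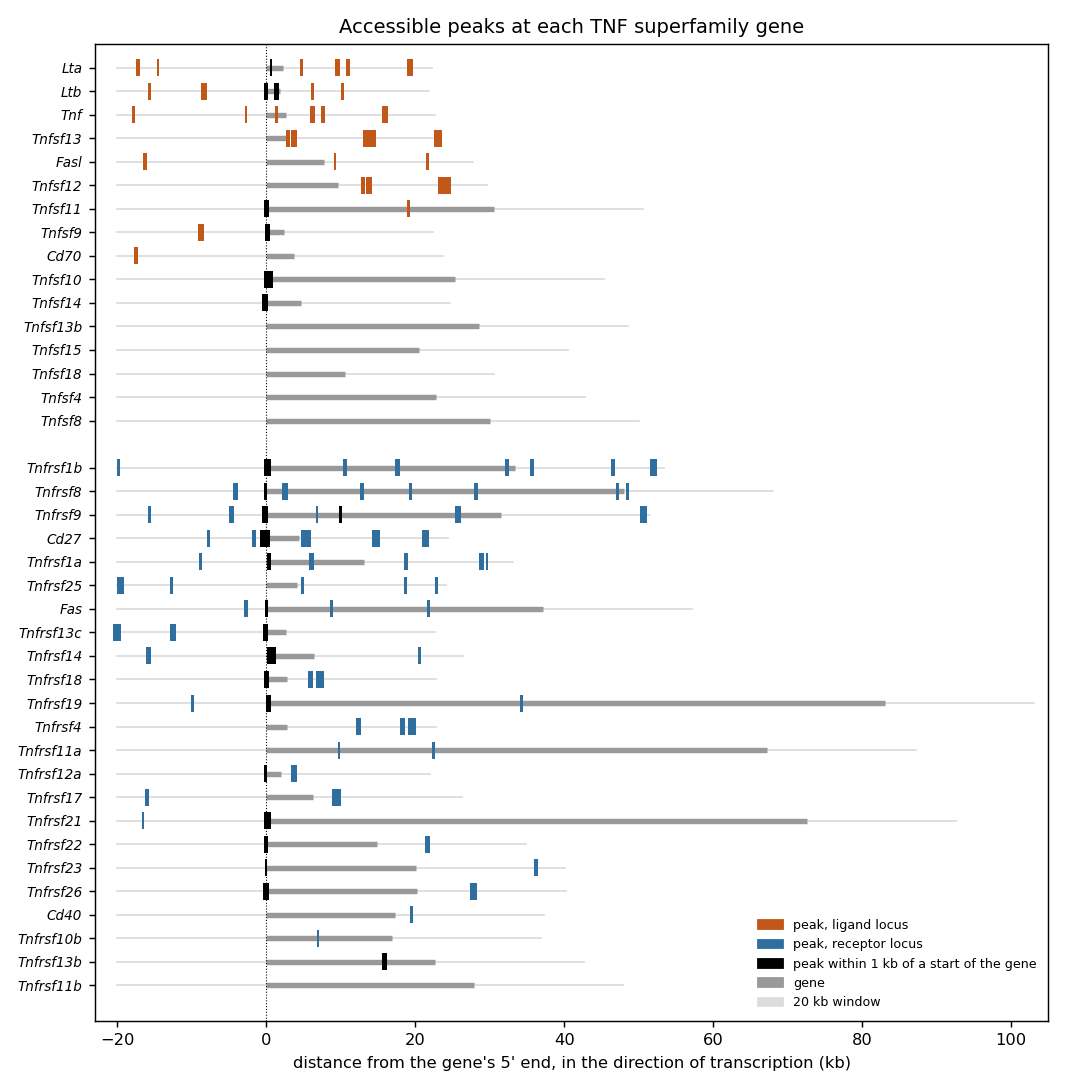
Position of each peak (coloured blocks, drawn to scale) relative to the gene's 5′ end along the direction of transcription (horizontal axis, kb), with ligands above and receptors below in order of their number of peaks. Grey bars are genes and thin lines the 20 kb windows, and black marks peaks within 1 kb of any start of the gene. Black blocks stand at 16 of 23 receptors and 6 of 16 ligands, and the 5 lowest ligand rows and the lowest receptor row hold none.

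The loci held 92 distinct peaks, 22 at ligands and 70 at receptors. No ligand window overlaps a receptor window, so by the position of the genes no peak fell in windows of both. Introns of the member held 15 of the 70 receptor peaks (21.4%) and 2 of the 22 ligand peaks (9.09%). Receptor genes were the longer ones (median 17322 against 8703.5 bp), and how gene length bears on these counts was not tested. Promoter peaks of the member made up 17 of the receptor peaks (24.3%) and 7 of the ligand peaks (31.8%). Of the ligand peaks 5 (22.7%), and of the receptor peaks 11 (15.7%), lay at a start of a non-member gene only. For all of these positions the share over the windows of all protein-coding genes is not given here. The counts thus do not tell whether ligands or receptors are unusual.

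The cluster with most peaks was that of Tnfrsf1b and Tnfrsf8, adjacent genes within 101702 bp of chromosome 4 with 15 distinct peaks. Per 10 kb of window they had 1.09 and 0.909 peaks, fewer than Lta, Ltb, Tnf and Cd27 with 1.66, 1.43, 1.41 and 1.35. Tnfrsf25 and Tnfrsf1a, with 1.13 each, also lay above both. Tnfrsf9 and Tnfsf13, with 0.978 and 0.932, lay between them. Beside its promoter peak, Tnfrsf1b had intronic peaks of 610 bp (chr4:144825892-144826501) and 672 bp (chr4:144818783-144819454) and one of 499 bp centred in an exon. Its further 4 peaks lay outside the gene, 3 of them nearest to the start of Vps13d. Tnfrsf8 had 4 intronic peaks of 425 to 747 bp, the widest at chr4:144902197-144902943, as well as 651 bp at 3832 bp upstream and 446 bp centred in an exon. One peak of 399 bp lay in both windows, between the genes.

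Stretches with several sites are shown for peaks of the loci with most peaks. Each peak was taken because it has most matches to a chosen motif in its locus, so its count is not typical of the locus. The share of all peaks with as many matches is not given here. The first is from the peak that lies 15467 bp upstream of Ltb. This stretch (chr17:35315499-35315769, plus strand) holds 4 TGGGAA sites in capitals. The second is from the Tnfrsf8 intron peak of 747 bp (chr4:144902457-144902578, minus strand) and holds 2 of its 3 TGGGAA sites. The last is from the 610 bp Tnfrsf1b intron peak (chr4:144825892-144826183, minus strand), with 3 TGTGGT sites, the core recognised by RUNX factors, in capitals. All are from mm9 and run 5′ to 3′ on the strand of the gene, and TTCCCA is TGGGAA read on the other strand.
Ltb upstream peak: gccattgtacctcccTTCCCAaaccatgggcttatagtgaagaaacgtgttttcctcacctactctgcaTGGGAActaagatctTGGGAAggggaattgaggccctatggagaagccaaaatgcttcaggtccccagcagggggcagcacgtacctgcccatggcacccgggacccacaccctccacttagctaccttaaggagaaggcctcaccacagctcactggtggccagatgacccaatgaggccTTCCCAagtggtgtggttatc
Tnfrsf8 intron peak: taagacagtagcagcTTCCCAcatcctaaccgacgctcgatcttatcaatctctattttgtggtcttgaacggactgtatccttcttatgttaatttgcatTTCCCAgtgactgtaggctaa
Tnfrsf1b intron peak: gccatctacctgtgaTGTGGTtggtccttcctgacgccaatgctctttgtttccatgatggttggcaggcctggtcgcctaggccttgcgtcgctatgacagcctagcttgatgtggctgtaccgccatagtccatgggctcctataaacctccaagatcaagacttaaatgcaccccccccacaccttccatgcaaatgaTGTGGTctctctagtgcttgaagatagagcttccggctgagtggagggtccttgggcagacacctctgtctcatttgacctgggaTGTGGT

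**Figure D4:**
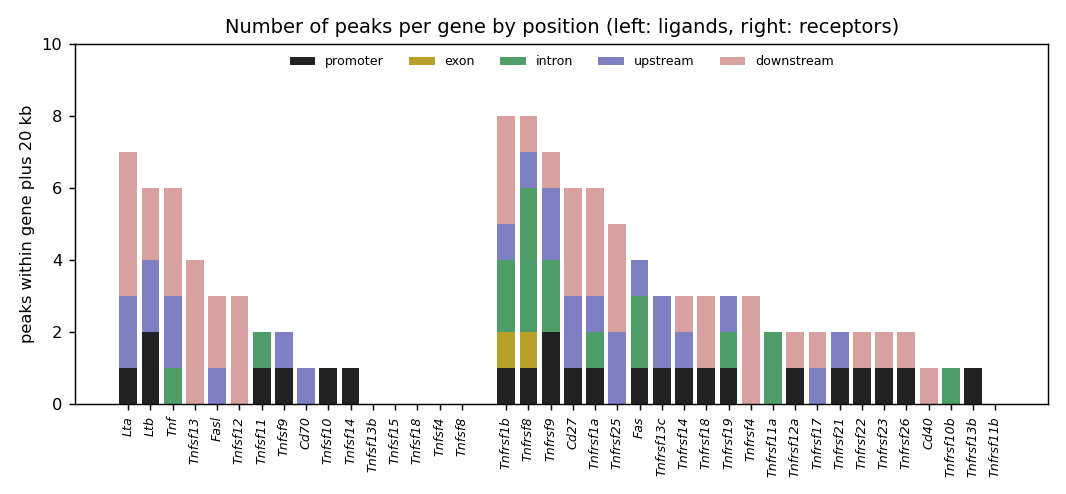
Number of peaks within the gene plus 20 kb (vertical axis) for each ligand (left) and receptor (right), stacked by the position of the peak centre relative to that gene. The highest bars are Lta with 7 peaks among ligands and Tnfrsf1b and Tnfrsf8 with 8 each among receptors. Intronic peaks (green) occur mainly in the receptor group, which has more genes, a longer median gene length and more peaks.

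The widths of the promoter peaks were compared next. The widest promoter peak had a median width of 680.5 bp in the 16 receptors (339 to 1257 bp) and of 689 bp in the 6 ligands (312 to 1156 bp), against 926 bp over all genes with one. It was under 500 bp in 5 of the 16 receptors, which are Fas, Tnfrsf8, Tnfrsf12a, Tnfrsf22 and Tnfrsf23, and in 1 ligand, Lta. The share under 500 bp was 31.3% of the receptors with a promoter peak, against 6.78% of all genes with one. Counting only peaks of at least 500 bp lowered the receptors to 47.8% and the ligands to 31.3%, against 43.8% of all genes, so that the receptors then lay near the share of all genes.

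The 6 motifs were then counted in the peaks on both strands, and matches of different motifs may overlap. TGGGAA was found in 38 of 70 receptor peaks (54.3%, 41.9 to 66.3%) and in 11 of 22 ligand peaks (50%, 28.2 to 71.8%), against 42.5% of all peaks of the list, at similar median widths of 545.5, 552 and 551 bp. Within the central 200 bp it was found in 22.9% and 31.8%, against 15.3% of all peaks. TGTGGT was found in 38.6% of receptor and 54.5% of ligand peaks, against 41.4% of all peaks, and CAGCTG in 41.4% and 45.5%, against 42.7%. GGGCGG was found in 41.4% and 31.8%, against 38.7%, and CCGGAA in 28.6% and 22.7%, against 22.5%. The NF-κB consensus was found in 10% of receptor and 9.09% of ligand peaks, against 9.99% of all peaks. Over peaks of all positions, the exact 95% intervals of the ligand peaks and of the receptor peaks included the share of all peaks. This held for each motif, in the whole peak and in its centre. Pooled over the 92 peaks of the family, TGGGAA was found in 53.3% (42.6 to 63.7%) and within the central 200 bp in 25% (16.6 to 35.1%). Both of these intervals lay above the share of all peaks, for the whole peak only just, at 42.56% against 42.50%. The pooled intervals of the other motifs included that share. All these intervals treat peaks as independent, which peaks of the same locus may not be. In the 52 distal peaks, which have no start of any gene within 1 kb, TGGGAA was found in 50% (35.8 to 64.2%), an interval that included the 39.2% of all distal peaks. For other motifs some intervals split by position excluded the matching share. GGGCGG was found in 41.7% of the non-distal ligand peaks (15.2 to 72.3%), against 76.6% of all such peaks. In the 40 non-distal peaks of the family it was found in 60% (43.3 to 75.1%), at median widths of 751 against 855 bp. In their centre it was found in 32.5% (18.6 to 49.1%), against 49.2%. In the 28 non-distal receptor peaks it was found in 67.9%, and in the centre in 35.7%, with intervals that included these shares. TGTGGT was found in the centre of 60% of the distal ligand peaks (26.2 to 87.8%), against 25.6%. These rest on 12 and 10 peaks, and many intervals were compared. A match does not tell whether a factor was bound.

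Finally, a list of 37 genes was examined, of which 30 act with or downstream of the family and 7 are superfamily members with other symbols. A promoter peak was present in 31 of the 37 (83.8%, 68.0 to 93.8%), and in 28 of the 30 partner genes (93.3%, 77.9 to 99.2%). All 6 kinases of the list, such as Ripk1 and Map3k14, all 5 NF-κB factors and all 5 feedback inhibitors, such as Tnfaip3 and Nfkbia, had one, and so did the death pathway genes Casp8, Cflar and Bid. Among 10 adaptors and ubiquitin ligases Traf1 and Birc2 lacked one, with the nearest peak at 1575 and 1209 bp, and Fadd and Tradd had one. Of the 30 partner genes 24 have a CpG-rich 5′ end, a class in which 76.2% of all genes had a promoter peak. Of the 7 superfamily members with other symbols, Ngfr, Relt and Edar had a promoter peak and Ltbr, Cd40lg, Eda and Eda2r did not.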

How the data were processed

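ATAC-Seq libraries of Beko cells, 3 treated with GSI and 3 with DMSO, were grouped by the labels of the samples. According to the study's methods and the submitters' processing notes, the authors trimmed reads with trimGalore, mapped them to mm9 with HISAT2 2.2.1, removed duplicates with Picard, called peaks by library with MACS2 without input, and retained peaks present in 3 of 6 libraries outside blacklisted regions. The deposited file holds chromosome, start and end in bp, and the deposited score is 0 throughout. Depth per library was not used here, and the intervals reflect the number of genes only. They do not cover accessible sites that peak calling missed. A gene without a peak in the list is therefore not shown to be inaccessible. A transposase shift of read ends is not given in the sources used here. A peak present in all 3 libraries of 1 treatment alone would pass this rule, and the list does not mark it.

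Starts were read as counted from 0 and printed counted from 1. Genes came from GENCODE vM1 on NCBIM37 (mm9), and sequence from the same build. Tnfrsf22 has 2 overlapping gene models, which were joined. Intervals are exact binomial (95%), computed in Python 3.11.15 with scipy 1.17.1 and numpy 2.4.6, and figures were drawn with matplotlib 3.10.9. The assignment of peaks to genes was tested on simulated data. Each member was to be named with its class, promoter peaks were to be given with their position, and the loci with most peaks were to be described peak by peak. The upstream stretches of Ltb, Tnfrsf1b, Tnf and Fasl, the roles within the family and the ligand and receptor pairs were chosen after seeing the peaks. Members and lists were chosen with earlier results of these data known. The planned comparison of GSI with DMSO was not run. Some items of the lists and loci are not reported here.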

Additional observations from a re-analysis of the deposited data

How the results depend on the processing

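No paired analysis was possible because accessibility is given once for both treatments together. Leaving out a library and a stricter calling threshold could not be run either. In the 9 alternatives for the promoter peak that change the genes, starts or peaks counted, the share was higher in receptors than in ligands. The difference ranged from 16.6 percentage points, with peaks of at least 500 bp, to 38.3, with peaks within 500 bp of a TSS. Counting gene models separately, or overlapping windows as 1 locus, was added after seeing the data. All members are autosomal, so that leaving out the sex chromosomes changed nothing and is no test, and there was no read-through gene to remove. Leaving that setting and the densities aside, shares and medians stayed within the 95% interval of the reported value in 42 alternatives and left it in 16. The median number of peaks per receptor locus fell from 3 to 1 for the gene only, for the gene plus 5 kb, for peaks of at least 500 bp and for nearest-start peaks, and rose to 5 for the gene plus 50 kb. Densities per 10 kb, 0.256 and 0.476, are on another scale. Motif shares fell in the central 200 bp, which is a shorter stretch. In receptor peaks they were 22.9% for RBPJ, 22.9% for RUNX, 21.4% for the E-box, 24.3% for SP, 17.1% for ETS and 1.43% for NF-κB, and in ligand peaks 31.8% for RUNX and 13.6% for the E-box. In distal peaks only, SP fell to 23.8% and ETS to 16.7% in receptor peaks, and NF-κB to 0% in the 10 distal ligand peaks, which allows a share of up to 30.8%. The cause was not tested.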

Other observations

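The superfamily members on chromosome X, which the symbol rule leaves out, had no promoter peak. Cd40lg, the ligand of CD40 on activated T cells, had 2 peaks in the gene plus 20 kb, the nearest at 15357 bp from a TSS. Eda and Eda2r, a ligand and its receptor in skin appendage development, had none, with nearest peaks at 93061 and 54176 bp. With these and the 4 other members of different symbols added, the shares with a promoter peak were 67.9% of 28 receptors and 33.3% of 18 ligands.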
